A study of Mus musculus with 26 samples.

Results

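Tgfb3, Csrp3, Moxd1, Pappa2, Pkp1, Cftr, Megf10, Lmo7, Gng7 and Islr2 are 10 genes whose probe sets were bright in sorted starburst amacrine cells of the mouse retina and lower in each of the other 12 sorted neuron subtypes. They were chosen from their starburst levels on these same arrays, so every starburst difference given for them is a description and carries no test. They are 10 of 18193 genes with a probe set on the array and of 13951 genes that passed a filter on dim values, and all 10 passed it; their own starburst signal is enough for that. Where a gene had several probe sets, the one with the highest mean was used. Near exclusiveness to starburst cells does not describe 3 of them: the means of the 6 ganglion cell subtypes reached 6.85 to 8.55 for Lmo7 and 7.98 to 9.29 for Islr2 on the log2 scale explained below, and Megf10 was also bright in MP bipolar cells (9.69 ± 0.08, SD, n = 2).

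Starburst cells are amacrine interneurons that release both acetylcholine and GABA. Their radial dendrites contact direction-selective ganglion cells, and their mirror-symmetric layers in the inner plexiform layer form early in postnatal life. The 10 genes have unrelated textbook roles. Tgfb3 encodes a secreted TGF-beta ligand, and Pappa2 a secreted metalloprotease that cleaves insulin-like growth factor binding proteins. Megf10 encodes a transmembrane protein with EGF repeats, known in starburst cells for the even spacing of their cell bodies. Islr2 encodes a membrane protein with leucine-rich repeats and an immunoglobulin domain, and Cftr an ABC-family chloride and bicarbonate channel. Gng7 encodes a gamma subunit of heterotrimeric G proteins. Pkp1 (plakophilin) is a desmosomal armadillo protein, Lmo7 an actin- and junction-associated LIM protein, Csrp3 a LIM-only protein best known from striated muscle, and Moxd1 a relative of the copper enzyme dopamine beta-hydroxylase.

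RNA was measured on 26 one-colour expression arrays, 2 per subtype for 13 subtypes, each from cells sorted by fluorescence out of papain-dissociated retinas at postnatal day 6. Starburst cells were the cells positive for Kusabira Orange and negative for the surface protein Thy1, from C57BL/6 mice. The 4 other amacrine subtypes were MP (CFP+ VC1.1+, a mixed C57BL/6 x CD1 background), AII (GFP+, Swiss Webster x C57BL/6), J (YFP+, labelled glycinergic, C57BL/6) and PaxCre (GFP+, labelled GABAergic, C57BL/6). The 2 bipolar subtypes were MP (CFP+ VC1.1-, the same mixed background) and ON (GFP+, C57BL/6). The 6 ganglion cell subtypes were all Thy1+: BD, J, W3 and W7 (YFP+) and Isl2 (beta-galactosidase positive) on C57BL/6, and Cdh3 (GFP+), whose labels give Swiss Webster crossed to C57BL/7 and to C57BL/8. The sorts rest on reporter mice, and which promoter drives each reporter is not given in the sources used here. The replicates of a subtype came from different litters, so their spread includes that between litters.

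Levels are given as log2(intensity + 16) after quantile normalization, on which the lowest possible value is 4.09 and the median of all values is 6.14. On the deposited scale the 12 ganglion cell arrays had median intensities of 61.5 to 74.7 and the other 14 arrays 37.4 to 47.2, so cell class and array scale cannot be told apart in any comparison with ganglion cells. Of 9 starburst markers, 6 were higher in starburst than in the mean of the other amacrine subtypes by limma. Sox2 (5.32 log2 units) led, and the others were Isl1, Fezf1, Gad1, Slc18a3 and Chat. Gad2 (-0.18), Slc32a1 (0.77) and the choline transporter gene Slc5a7 were not called, the last staying below the array median. Isl1 was 12.81 in starburst and 12.82 in ON bipolar cells. Of 6 tested amacrine markers, Tfap2c (-4.53) and Slc6a9 (-4.26) were lower and 4 were not called. Over the amacrine list the mean level was 8.89 and 8.98 on the starburst arrays and 8.98 to 10.77 on the other amacrine arrays. Thy1 was 9.98 in the starburst sort despite the Thy1-negative gate. Of 9 tested ganglion cell markers, Thy1 (2.39) and Stmn2 (1.82) were higher in starburst than in the other amacrine subtypes and Nefl (-2.79) and Nefm (-1.64) lower. Over that list the mean level was 6.84 and 7.07 on the starburst arrays, 5.82 to 8.09 on the other amacrine arrays and 11.09 to 11.62 on the ganglion cell arrays. Of other cells, 5 of 6 rod markers and 1 of 5 bipolar markers (Otx2) were lower, 1 of 9 Müller glia markers was higher (Sox9) and 2 lower (Dkk3 and Clu), 1 of 7 progenitor markers was higher (Sfrp2) and 2 lower (Ccnd1 and Top2a), and 1 of 6 vascular markers was higher (Kdr). The mean level of the microglial list was 5.71 and 5.82 on the starburst arrays, against 5.50 to 7.68 on the other amacrine arrays. That of the vascular list was 5.91 and 5.76, above the 5.16 to 5.66 of the other amacrine arrays. On starburst replicates 1 and 2, Rgs5 read 8.96 and 5.26 and Pdgfrb 6.35 and 4.55. The other tested vascular markers, Kdr, Cdh5, Acta2 and Cspg4, were higher on replicate 2. The part of such other cells in the levels of the 10 genes was not tested. In these bulk sorts, a smaller share of cells with a transcript and less of it per cell cannot be told apart.

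Promoter windows from RefSeq (GRCm38.p6; 250 bases before a transcription start and 50 after it) were at hand for 7 of the 10 genes: Pappa2, Cftr, Csrp3, Islr2, Moxd1, Gng7 and Lmo7, 12 windows in all. Tgfb3, Pkp1 and Megf10 are named here without one. The stretches below, the 250 bases before the start of 4 genes, are shown because these genes, all high in starburst cells, differ in GC-box matches and base composition. They lie at chr6:18170437-18170686 (plus strand), chr10:24223267-24223516 (plus strand), chr14:101729678-101729927 (plus strand) and chr1:158958176-158958425 (minus strand), and capitals mark the GC box CCGCCC on either strand.
Cftr: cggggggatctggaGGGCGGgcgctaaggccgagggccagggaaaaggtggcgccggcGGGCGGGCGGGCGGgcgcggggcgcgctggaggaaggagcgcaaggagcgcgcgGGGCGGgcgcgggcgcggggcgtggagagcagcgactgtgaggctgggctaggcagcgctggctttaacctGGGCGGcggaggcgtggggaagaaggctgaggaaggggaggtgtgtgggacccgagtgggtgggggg
Moxd1: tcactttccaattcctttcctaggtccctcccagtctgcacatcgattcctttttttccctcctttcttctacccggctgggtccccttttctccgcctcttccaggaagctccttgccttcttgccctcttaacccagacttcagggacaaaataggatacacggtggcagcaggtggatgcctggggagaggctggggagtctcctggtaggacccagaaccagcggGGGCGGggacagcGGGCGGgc
Lmo7: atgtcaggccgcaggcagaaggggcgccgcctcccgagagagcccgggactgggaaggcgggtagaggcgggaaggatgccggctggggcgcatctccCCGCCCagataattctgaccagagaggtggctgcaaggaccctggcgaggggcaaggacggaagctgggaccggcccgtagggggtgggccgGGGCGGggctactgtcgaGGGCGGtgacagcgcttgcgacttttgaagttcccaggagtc
Pappa2: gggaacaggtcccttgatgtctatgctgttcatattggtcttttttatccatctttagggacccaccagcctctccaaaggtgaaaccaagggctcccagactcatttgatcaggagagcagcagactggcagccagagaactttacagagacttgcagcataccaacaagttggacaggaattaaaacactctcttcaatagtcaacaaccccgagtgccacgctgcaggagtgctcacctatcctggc
Cftr holds 6 GC-box matches here, some of them overlapping, Lmo7 holds 3, Moxd1 holds 2 and Pappa2 none. G and C made up 71.3% of the Cftr window and 46.0% of the second Lmo7 window, the extremes of the 12, against a median of 52.7% over 32841 windows in the table.

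Across the 12 windows CCGCCC occurred in 5, from 5 genes (Cftr, Gng7, Islr2, Lmo7 and Moxd1), and in 35.7% of all windows. The E-box CANNTG occurred in 9, covering all 7 genes, and in 72.3% of all windows. The core promoter motif TATAAA, held by 13.6% of all windows, occurred in none of the 12, and neither did the SOX factor core CATTGT, held by 12.6%. The core CTAATG, of the kind bound by LIM homeodomain proteins such as Isl1, occurred in 2 of the 12, both of Islr2, and in 7.36% of all windows. These 2 Islr2 windows overlap and share 1 match, so the 2 hold a single site. It lies in the stretch chr9:58202547-58202576 (minus strand), with the core in capitals.
Islr2: ggtgagttcaacCTAATGttttaggagctc
All motifs were searched on both strands, and a match is a description of the letters alone.

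On every one of the 10 probe sets, both starburst arrays lay above all 24 other arrays, as they did for 4.47% of the tested genes (623 of 13951). For 9 of the 10, all but Islr2, the lower starburst array was at least 1 log2 unit above the highest other array, against 0.609% of tested genes (85). This separation is what the genes were chosen for, and nothing is read from those counts. Taken subtype by subtype, the 120 differences of the starburst mean from a subtype mean ran from 1.25 to 7.77 log2 units. Of these, 105 were at least 4 and 84 at least 5. The 12 differences under 3 were those of Lmo7 and Islr2 from ganglion cell subtypes and that of Megf10 from MP bipolar cells.

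**Figure D1:**
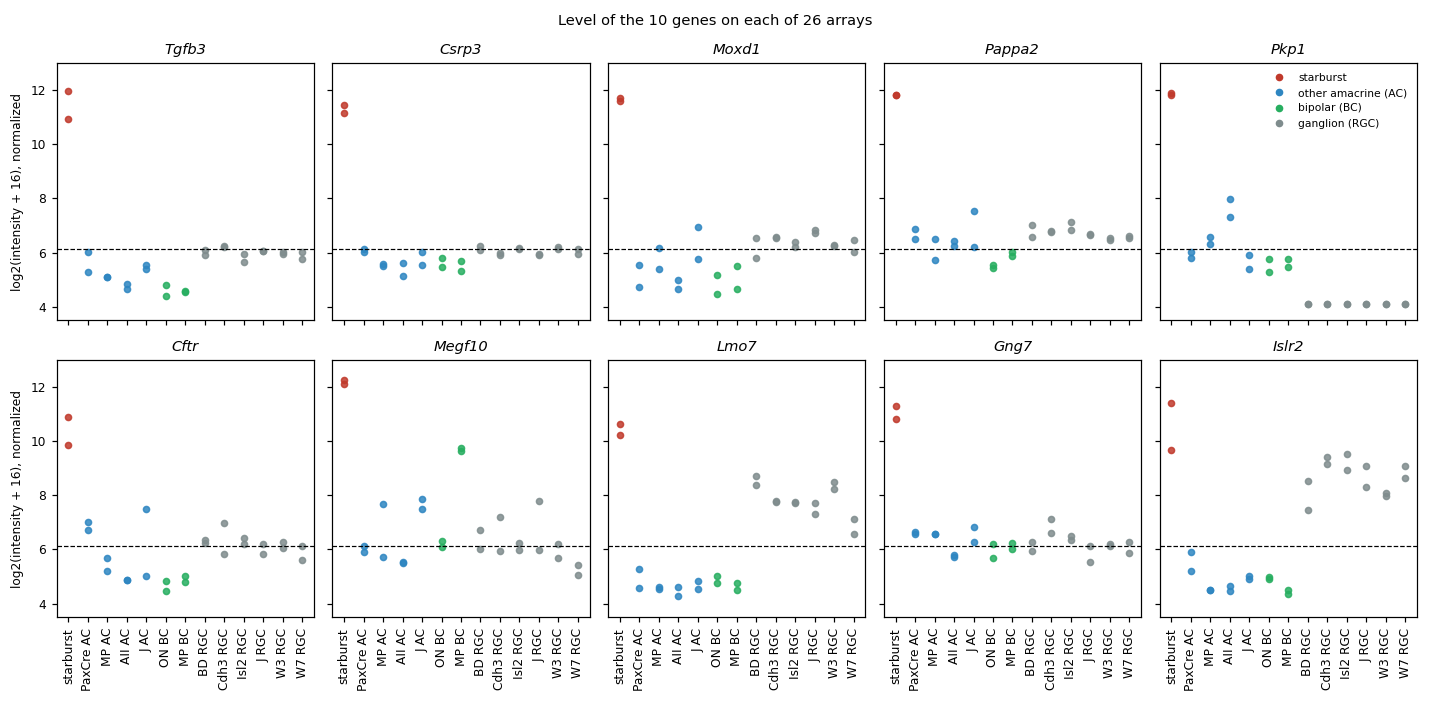
Normalized level, log2(intensity + 16), of each of the 10 genes on every array: 1 point per array, 2 per subtype, coloured by cell class; the dashed line is the median of all values (6.14). Both starburst points lie above all other points in each panel, while the ganglion cell points of Lmo7 and Islr2 and the MP bipolar points of Megf10 rise well above the line.

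Tgfb3, the secreted ligand, had deposited intensities of 1777 and 3511 in the starburst replicates, or 10.95 and 11.98 on the log2 scale. The 8 other amacrine arrays ran from 4.65 over a median of 5.19 to 6.02, the 12 ganglion cell arrays from 5.64 over 6.03 to 6.23, and the 4 bipolar arrays from 4.40 over 4.57 to 4.82. Starburst stood alone, and 22 of the 24 other arrays were below the array median. The starburst mean was 6.23 ± 0.22 (SE of the fit, n = 2 arrays against 8) log2 units above the other amacrine mean. Below starburst came the 6 ganglion cell subtypes, from Cdh3 (6.22 ± 0.02, SD, n = 2) to Isl2 (5.80 ± 0.22), and most of these neighbours overlapped in their replicates.

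Pappa2, the protease, gave the closest starburst replicates of the 10, at 11.83 and 11.81 (intensities 3281 and 3116). Other amacrine arrays ran from 5.72 over 6.47 to 7.55, ganglion cell arrays from 6.45 over 6.66 to 7.14, and bipolar arrays from 5.42 over 5.69 to 6.03. Unlike Tgfb3, the gene was above the array median on most arrays outside the bipolar class: only 5 of 24 lay below it. The highest other array was J amacrine replicate 2, and the J amacrine replicates differed widely (6.87 ± 0.95, SD, n = 2). The starburst mean was 5.32 ± 0.25 (SE) above the other amacrine mean.

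Megf10 was at 12.10 and 12.27 in starburst (intensities 3954 and 4239). In MP bipolar cells it reached 9.63 and 9.75 (655 and 732), while ON bipolar cells had 6.11 and 6.31 (41.8 and 47.7). J amacrine cells had 7.50 and 7.87, and the remaining amacrine arrays lay between 5.50 and 7.68. Megf10 was thus high in starburst, intermediate in MP bipolar and near the array median in most other subtypes. MP amacrine replicates disagreed, with 7.68 against 5.72, as did those of J ganglion cells (6.89 ± 1.29, SD, n = 2). The starburst mean exceeded that of MP bipolar cells by 2.50 ± 0.55 and the other amacrine mean by 5.71 ± 0.43 (SE).

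Islr2 had the widest starburst replicates of the 10, with 9.69 and 11.40 (intensities 742 and 2310). Ganglion cell arrays ran from 7.45 over 8.78 to 9.52, and the highest of them, Isl2 replicate 2, came within 0.17 of the lower starburst array. On the deposited scale that array read 852 and the Cdh3 arrays 747 and 856, all above the lower starburst array's 742. With the columns left as deposited the gap turned to -0.20, and with ganglion cell arrays normalized apart from the rest to -0.34, so the order of starburst and ganglion cells for Islr2 depends on the scaling. All 8 other amacrine arrays (4.48 to 5.90) and all 4 bipolar arrays (4.37 to 4.99) were below the array median. The starburst mean exceeded the other amacrine mean by 5.65 ± 0.34 and the nearest ganglion cell subtype, Cdh3, by 1.25 ± 0.43 (SE).

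Cftr, the chloride channel, had 10.89 and 9.88 in starburst (intensities 1707 and 733). PaxCre amacrine cells followed with 7.03 and 6.73, above MP (5.19 and 5.70) and AII amacrine cells (4.89 and 4.88). The J amacrine replicates did not agree, at 7.50 and 5.01 (intensities 152 and 12.7), so that single array was the highest outside starburst. Ganglion cell arrays lay between 5.62 and 6.98 and bipolar arrays between 4.46 and 5.03. The starburst mean was 4.52 ± 0.42 (SE) above the other amacrine mean. A second Cftr probe set was dim, with 15.7 and 20.0 in starburst against at most 17.3 elsewhere on the deposited scale. On the normalized scale it read 5.22 and 5.33 in starburst, below the array median, against at most 4.96 elsewhere. Its starburst difference from the other amacrine mean was 0.88, so the 2 probe sets shared a direction but differed in brightness and size.

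Gng7, the G protein subunit, had 10.82 and 11.29 in starburst (intensities 1625 and 2121). Other amacrine arrays ran from 5.71 over 6.56 to 6.83, ganglion cell arrays from 5.54 over 6.24 to 7.13, and bipolar arrays from 5.70 over 6.11 to 6.23. No class stood out among the rest, and of the 11 pairs of neighbours in the order of the other subtypes, 10 overlapped in their replicates. The starburst mean was 4.69 ± 0.20 (SE) above the other amacrine mean.

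Pkp1, the desmosomal protein, had 11.90 and 11.81 in starburst (intensities 3417 and 3134). AII amacrine cells followed with 7.99 and 7.31 (192 and 115), then MP amacrine cells with 6.59 and 6.31, while the remaining amacrine and bipolar arrays lay between 5.27 and 6.02. On all 12 ganglion cell arrays the deposited value was exactly 1, the value at which low readings pile up. Of 45037 probe sets, 50 read 1 on all ganglion cell arrays, and 16 of these were above 1 on all 14 other arrays. In 3 of them, Pkp1 included, no other array fell under 18. That cut lies just under the lowest Pkp1 reading there (18.1), so nothing is read from the count of 3. The reverse, 1 on all 14 other arrays and above 1 on all ganglion cell arrays, occurred for 15 probe sets. The starburst mean was 5.44 ± 0.18 above the other amacrine mean and 4.21 ± 0.22 (SE) above AII. The distance to ganglion cells is set by that value of 1 and by the pseudocount. The 12 equal ganglion cell readings add no spread to the pooled variance, which lowers the SEs of Pkp1.

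Lmo7, the junction protein, had 10.65 and 10.23 in starburst (intensities 1451 and 971). Ganglion cell arrays ran from 6.58 over 7.75 to 8.73, led by BD (8.55 ± 0.26, SD, n = 2) and W3 (8.38 ± 0.19), with W7 lowest (6.85 ± 0.38). All 8 other amacrine arrays (4.29 to 5.29) and all 4 bipolar arrays (median 4.76) were below the array median, so the gene fell into 3 tiers. The starburst mean exceeded the other amacrine mean by 5.78 ± 0.20 and the BD mean by 1.89 ± 0.25 (SE). A second, dim probe set of Lmo7 read 3.41 and 9.90 in starburst and at most 9.97 elsewhere, with no separation.

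Csrp3, the LIM-only protein, had 11.45 and 11.16 in starburst (intensities 2569 and 1931). All 24 other arrays lay in a band from 5.13 to 6.26, and no other subtype stood apart. Moxd1, the monooxygenase relative, had 11.59 and 11.70 (2798 and 2870) against a range of 4.47 to 6.93 on the other arrays. J amacrine replicate 2 (6.93) and J ganglion cells (6.77 ± 0.08, SD, n = 2) were its highest values outside starburst. The starburst means were 5.62 ± 0.16 (Csrp3) and 6.12 ± 0.31 (Moxd1; SE) above the other amacrine means.

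**Figure D2:**
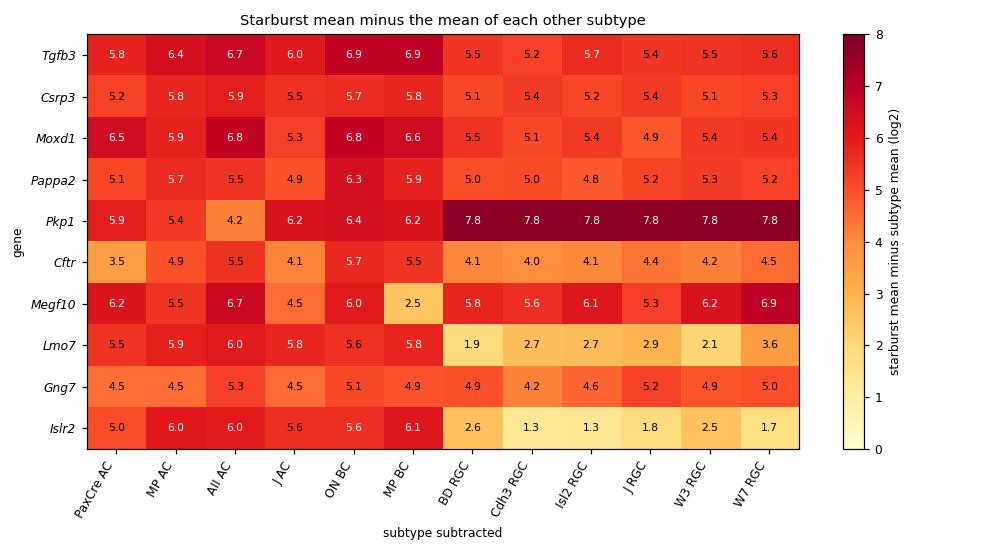
Starburst mean minus the mean of each other subtype, in log2 units, with 10 genes as rows and 12 subtypes as columns. Differences run from 1.25 (Islr2 against Cdh3 ganglion cells) to 7.77, the latter for Pkp1 against ganglion cells that all read the lowest value; the pale cells are Lmo7 and Islr2 against ganglion cells and Megf10 against MP bipolar cells.

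Ranked among all 13951 tested genes by the gap between the lower starburst array and the highest other array, the members spread from place 1 to place 365. Csrp3 (4.90), Tgfb3 (4.72), Moxd1 (4.66) and Pappa2 (4.26) held places 1 to 4, Pkp1 (3.82) and Gng7 (3.69) places 6 and 7, Cftr (2.38) place 24 and Megf10 (2.36) place 26. Lmo7 (1.49) was at place 52 and Islr2 (0.17) at place 365, the highest other array being a ganglion cell array in both. The 10 other genes with the largest gaps were Gabrd (4.11), a GABA-A receptor delta subunit at place 5, Kcnf1 (3.29), Sox2 (3.01), Cmtm8 (2.95), Pnoc (2.76), Hmga2 (2.76), Mmp17 (2.76), Sox2ot (2.73), Pxdc1 (2.69) and Msc (2.63).

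**Figure D3:**
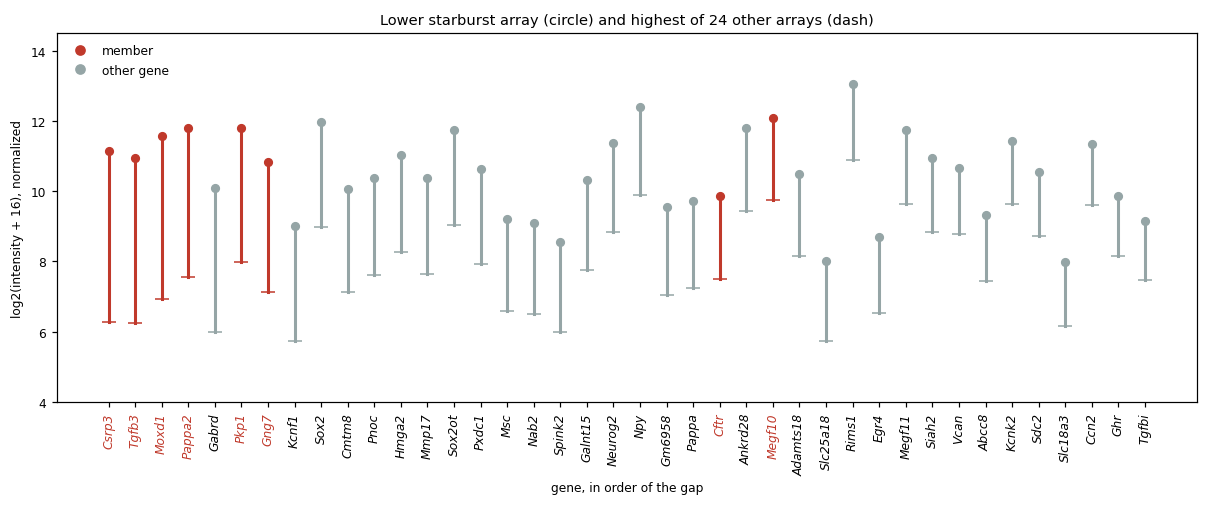
Lower of the 2 starburst arrays (circle) and highest of the 24 other arrays (dash) for the genes with the largest gap between them, in log2(intensity + 16), with the members in red. The first 4 genes are members (gaps of 4.26 to 4.90), and Gabrd at place 5 is not one.

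Over the 13 subtype means, the genes whose pattern was most like that of each member by Pearson's r were often other members: Pappa2 and Csrp3 for Tgfb3 (both 0.98), Tgfb3 and Pappa2 for Moxd1 (0.98 and 0.96), Slc25a18 and Tgfb3 for both Csrp3 (0.99 and 0.98) and Pappa2 (both 0.98), Csrp3 and Slc25a18 for Gng7 (0.97 and 0.96), and Nab2 and Tgfb3 for Cftr (0.97 and 0.96). The others had partners outside the set: Msc and Gabrd for Pkp1 (both 0.96), Fezf1 and Hopx for Megf10 (0.96 and 0.95), Cmtm7 and Fhdc1 for Lmo7 (0.97 for both), and Rapsn and Nrip3 for Islr2 (0.98 and 0.97). Each of these values includes the starburst mean, and those of Lmo7 and Islr2 also the high ganglion cell means. The 45 pairs of members had r from -0.01 to 0.98 (median 0.75) over 13 means. Without starburst, over the remaining 12 means, r ran from -0.89 (Pkp1 and Islr2) to 0.92 (Lmo7 and Islr2), with a median of 0.38. Those 12 points share the division between ganglion cell arrays and the rest.

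Comparisons among the other subtypes leave the starburst means out of the contrast, but all 26 arrays, starburst included, enter the variance of the fit. They are also not independent of how the members were chosen, since low levels in those subtypes were part of the choice. Counts of members there are given as a description beside those of all genes, and nothing about the set is read from them. Values for single members come from 1 limma fit over all genes. A gene was called at a Benjamini-Hochberg adjusted p under 0.05 over all tested genes together with a difference, or a range of subtype means, of at least 1 log2 unit. Among the 4 other amacrine subtypes, 4 of 10 members were called, against 33.4% of all tested genes. The members' median range was 0.97 and that of all genes 0.80. Pkp1 varied by 2.01 (adjusted p = 6.31e-06) with AII highest and both AII arrays above the other 6. That p rests on a variance lowered by the ganglion cell arrays, which all read 1 for Pkp1. Megf10 varied by 2.17 (adjusted p = 0.0166) with J highest and AII lowest. Cftr varied by 1.99 (adjusted p = 0.0226) with PaxCre highest, and Moxd1 by 1.53 (adjusted p = 0.0144) with J highest.

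Apart from that of Pkp1, each of these amacrine calls was lost when single arrays were left out. Moxd1 was no longer called without AII replicate 1 (range 1.37, adjusted p = 0.0548) or J replicate 2 (0.97, 0.0811). Megf10 was no longer called without AII replicate 2 (2.19, 0.0526) or J replicate 2 (1.99, 0.0813), and Cftr without either AII or either PaxCre array (adjusted p = 0.0559 to 0.0889). Over all alternatives tried, adjusted p ran from 0.00287 to 0.0824 for Moxd1, from 0.00219 to 0.0813 for Megf10, from 0.00013 to 0.612 for Cftr and from 1.29e-06 to 0.549 for Pkp1. With C57BL/6 subtypes alone, which leaves J and PaxCre amacrine cells, Pkp1 was no longer called (0.27), and AII was not among them. On these, Moxd1 (1.23) and Cftr (0.63) were not called either. Moxd1 (0.79) and Cftr (1.10) also lost their call with a pseudocount of 64, and Cftr as the median over its probe sets (0.96).

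Among the 6 ganglion cell subtypes, which share 1 array scale, 1 of 10 members was called, against 5.94% of tested genes. Lmo7 varied by 1.70 (adjusted p = 0.00203), highest in BD and lowest in W7. It was not called with a pseudocount of 1 (1.85, adjusted p = 0.0854) or as the median over its probe sets (0.96), and over all alternatives its adjusted p ran from 0.000284 to 0.0854. Islr2 ranged by 1.31 among ganglion cells (adjusted p = 0.153) and Megf10 by 1.63 (adjusted p = 0.368), both past 1 log2 unit without passing the test. The variance behind the Islr2 test includes that of its wide starburst replicates (SD 1.21). Pkp1 could not be compared among ganglion cells, having 1 value on all 12 arrays.

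Between ganglion cells and the other amacrine subtypes, 3 of 10 members were called, against 26% of tested genes. Islr2 was higher in ganglion cells by 3.79 ± 0.19 (SE; adjusted p = 5.22e-12) and Lmo7 by 3.14 ± 0.11 (adjusted p = 5.02e-14), with no overlap between the 12 and 8 arrays in either. Pkp1 was lower in ganglion cells by the value -2.33 ± 0.10 (adjusted p = 5.92e-13). The size is set, and the SE lowered, by its reading of 1 on all 12 ganglion cell arrays. These 3 members kept their call and direction under all 38 alternatives. The members' median difference was 0.35 and that of all genes 0.02. On the deposited scale all genes had a median difference of 0.53 and 5 members were called, against 3 after normalization, where Tgfb3 (0.75) and Moxd1 (0.86) stayed under 1 log2 unit.

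Between bipolar cells and the other amacrine subtypes, 2 of 10 members were called, against 10.5% of tested genes. Megf10 was higher in bipolar cells by 1.47 ± 0.34 (SE; adjusted p = 0.0025; 0.000195 to 0.245 over the alternatives). The MP bipolar arrays alone were high, and with C57BL/6 subtypes alone, which leaves ON as the bipolar subtype, the difference was -0.65 (adjusted p = 0.245). Cftr was lower by the value -1.08 ± 0.33 (adjusted p = 0.0174). Its call was lost without J amacrine replicate 1 (-0.77), ON bipolar replicate 2 (-0.99, adjusted p = 0.0712) or MP bipolar replicate 1 (-1.02, adjusted p = 0.0667), and its adjusted p ran from 0.0001 to 0.0712. The difference was also under 1 log2 unit with ganglion cell arrays normalized apart or arrays shifted to equal medians, with a pseudocount of 64 (-0.57) and as the median over probe sets (-0.52). Members had a median of -0.46 and all genes 0.02.

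Between ON and MP bipolar cells, 1 of 10 members was called, against 5.03% of tested genes. Megf10 was lower in ON cells, with a difference of -3.48 ± 0.55 (SE; adjusted p = 0.000312; 5.43e-05 to 0.00664 over the alternatives), and the arrays did not overlap. These sorts differ in reporter, gate and strain as well as in subtype, which cannot be told apart here. Thy1 also differed between them (11.67 in MP and 5.03 in ON bipolar cells), and its part in the Megf10 difference was not tested. The other 9 members differed by at most 0.52 in either direction.

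Genes that work with the members, or are related to them, were compared between starburst and the other amacrine subtypes. The listing was made with earlier results of these data known. Counts and adjusted p-values of listed genes are therefore a description, and nothing about the lists is read from them. Of 161 genes on 10 lists, 155 had a probe set and 141 were tested; 14 were called higher, against 5.32% of all tested genes, and 15 lower, against 5.61%. Their median difference was 0.03 and that of all genes 0.05, and 112 of the 141 were not called. For Tgfb3, 4 of 16 tested pathway genes were lower and none higher: Tgfb2, a sister ligand (-2.83 ± 0.34, SE; adjusted p = 5.88e-06), Itgb8, an integrin that activates latent TGF-beta (-2.45 ± 0.49; 0.00125), the signal transducer Smad3 (-1.38 ± 0.19; 3.10e-05) and Ltbp3, a latent TGF-beta binding protein (-1.15 ± 0.23; 0.000998). Tgfb2 was 7.54 in starburst and highest in AII amacrine cells (12.19). Tgfb3 was lowest among amacrine cells in AII, but its range over the other amacrine subtypes (0.90) was not called. AII was also the lowest of these for Csrp3, Moxd1, Cftr, Megf10, Lmo7 and Gng7. Ltbp3 was not called without starburst replicate 2 (-0.85) or on C57BL/6 subtypes alone (-0.96), and was -1.77 as the median over its probe sets.

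For Pappa2, 2 of 12 tested genes of the pappalysin and IGF list were higher and 1 lower. Pappa, the sister protease, was higher by 4.43 ± 0.31 (SE; adjusted p = 5.88e-09), and Igfbp7, an IGF-binding-protein relative, by 4.10 ± 0.63 (8.33e-05). The Igfbp7 level was 10.84 in J ganglion cells and 10.62 in starburst. Igf1r, the receptor, was lower (-1.86 ± 0.28; 7.56e-05), but its difference was -0.10 as the median over its probe sets, and that of Igfbp7 was then 1.06. For Megf10, 1 of 14 was higher and 2 lower: the sister gene Megf11 (4.02 ± 0.23; 4.70e-10), also known for the spacing of retinal neurons, against the lipid transporter Abca1 (-2.47 ± 0.49; 0.00106) and the adaptor Gulp1 (-1.38 ± 0.25; 0.000521). As the median over probe sets Megf11 was 2.26, Gulp1 was no longer called (-0.66) and Abca1 turned to 0.17. Gulp1 was also not called on C57BL/6 subtypes alone (-0.46).

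For Cftr, 1 of 18 tested chloride and ABC-family genes was higher and 2 lower. Abcc8, the sulfonylurea receptor subunit of potassium channels, was higher by 3.99 ± 0.22 (SE; adjusted p = 1.99e-10). The chloride cotransporters Slc12a2, which loads cells with chloride (-1.95 ± 0.22; 3.02e-06), and Slc12a5, which extrudes it (-1.30 ± 0.12; 3.16e-07), were both lower. As the median over probe sets Abcc8 was 2.51 and Slc12a5 was not called (-0.67). For Gng7, 3 of 24 G protein genes were higher and 3 lower. The 4 with the largest changes were all gamma subunits: Gng2 (-2.10 ± 0.20; 3.07e-07), Gng8 (-1.81 ± 0.24; 1.69e-05), Gng12 (1.66 ± 0.37; 0.00287) and Gng4 (1.28 ± 0.29; 0.00283). Gng12 and Gng4 were not called without starburst replicate 2 (1.11 and 1.15). Gng4 stood higher in ganglion cells (mean 12.29) than in starburst (9.22). As the median over probe sets Gng2 was -1.17 and Gng4 not called (0.60), and on C57BL/6 subtypes alone Gng8 was -3.18, Gng2 -3.13 and Gng4 again not called (0.51).

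For Islr2, 3 of 15 tested relatives were higher: Lingo1 (2.22 ± 0.22, SE; adjusted p = 3.76e-07), the neurotrophin receptor gene Ntrk2 (1.58 ± 0.28; 0.000395) and Amigo2 (1.04 ± 0.25; 0.00558), the last not called without starburst replicate 2 (0.65) or without replicate 2 of MP, AII or J amacrine cells (0.97 to 0.99). As the median over probe sets neither Ntrk2 (0.83) nor Amigo2 (0.55) was called, and on C57BL/6 subtypes alone they were 0.85 and 0.76, also not called. For Pkp1, 1 of 13 desmosome and plakophilin genes was higher, Pkp2 (1.47 ± 0.32; 0.0021), and 1 lower, Pkp4 (-1.54 ± 0.17; 2.31e-06). Pkp2 was not called without starburst replicate 2 (1.18), and as the median over probe sets neither Pkp2 (0.55) nor Pkp4 (-0.96) was. Pkp2 stood higher in ON bipolar cells (8.45) than in starburst (6.92), as did Amigo2 (8.72 against 7.54). With a pseudocount of 64, Pkp2 (0.87), Lmo1 of the next list (0.97), Amigo2 (0.73), Csrp2 (-0.66) and Tph2 (0.51) were not called. For Lmo7, 1 of 11 was higher, Lmo1 (1.29 ± 0.20; 0.00012). For Csrp3, 1 of 12 LIM-list genes was lower, Csrp2 (-1.30 ± 0.40; 0.0221), which lost its call without either starburst replicate (-1.15 and -1.47) and on C57BL/6 subtypes alone (-1.22). For Moxd1, 2 of 6 monooxygenase genes were higher, the tryptophan hydroxylases Tph1 (1.70 ± 0.19; 2.85e-06) and Tph2 (1.17 ± 0.25; 0.00231). Pam, the peptide-amidating copper enzyme, was lower (-2.46 ± 0.22; 1.11e-07). Tph1 read 7.04 and 7.11 in starburst, and its highest mean elsewhere was 5.90, in MP bipolar cells and below the array median. Its starburst signal alone can carry it past the filter on dim values, so its call is a description only. Tph2 was not called without starburst replicate 1 (adjusted p = 0.052) or on the deposited scale (0.96), and stood higher in Cdh3 ganglion cells (7.86) than in starburst (5.77).

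**Figure D4:**
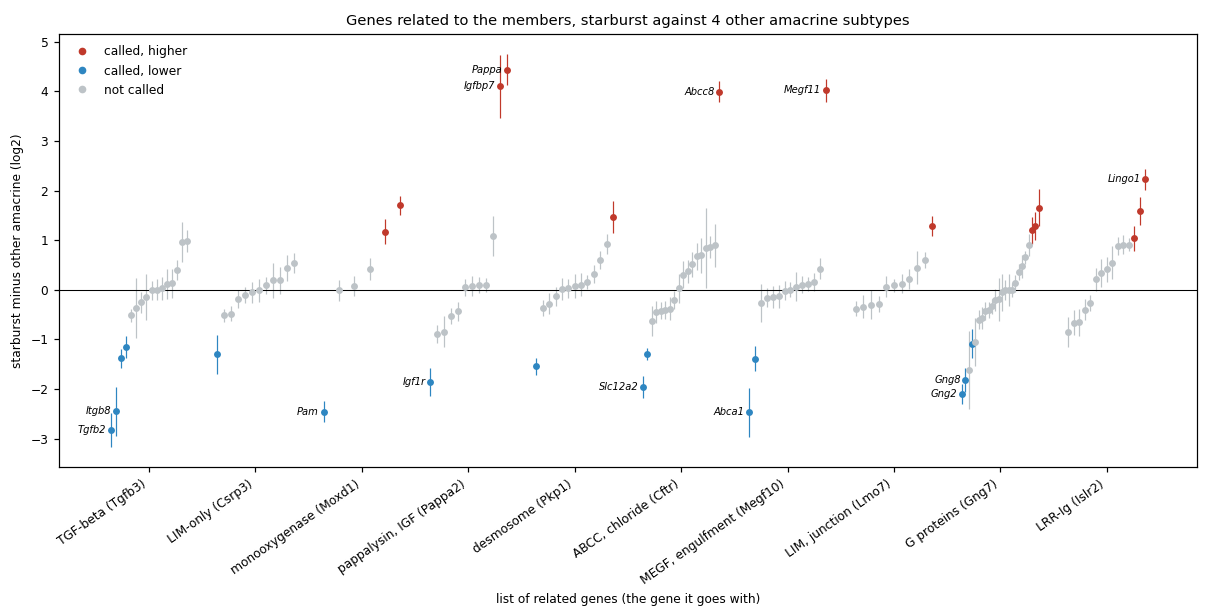
Starburst mean minus the mean of the 4 other amacrine subtypes, in log2 units, for each tested gene of the 10 lists, 1 point per gene, red where called higher, blue where called lower and grey otherwise. Most points lie near 0 (median 0.03); Pappa, Igfbp7, Megf11 and Abcc8, at 3.99 to 4.43, are the points nearest the members' differences of 4.52 to 6.23.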

How the data were processed

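RNA from 26 sorted samples was amplified in 2 rounds and labelled with biotin, per the labels' protocols. The deposited table holds 1 linear intensity per probe set and array. How the authors scaled it is not given in the sources used here. Low readings pile up at 1, and the ganglion cell columns lie on a higher scale.

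Columns were matched to samples by the labels. Intensities were turned into log2(intensity + 16) and quantile normalized. Per gene the probe set with the highest mean was kept. Genes with at least 2 arrays above the overall median were tested in 1 fit with limma 3.58.1 (R 4.3.3), with a mean per subtype. Genes were called at a Benjamini-Hochberg adjusted p under 0.05 and at least 1 log2 unit. Their number, 2 arrays per subtype, limits the precision. The procedure was tested on simulated data with independent normal noise around each gene's mean. Those data had no pile-up at 1, no scale difference between ganglion cell and other arrays, and no choice of members. The test therefore does not cover these limits.

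The members and the gene lists were chosen with earlier results of these data known. Named are all members, up to 4 called genes per list, the 10 other genes with the largest gap, and the 2 genes most like each member, beside marker and gate genes. Replicate numbers were not used to pair the samples in the main fit. Between subtypes, the correlation of replicate differences ran from -0.23 to 0.37, and was over 0.1 in 21 of 78 pairs. Whether some subtypes share a batch by replicate number is not settled by these values. Alternatives covered normalization, pseudocount, filter, probe set rule, variance model, array weights, replicate block, strain and leaving out each array. Figures were drawn with matplotlib 3.10.9. Measured list genes under the filter were not tested.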

Additional observations from a re-analysis of the deposited data

How the results depend on the processing

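Under 38 alternatives, 26 of which leave out 1 array, 4 of 11 member calls and 13 of 29 partner calls kept their direction and threshold wherever they had a value (37 alternatives for Smad3 and for Megf10 between bipolar subtypes, 35 for Tph1); for the rest the cause was not tested. Tph1, among the 13, had no value where the filter on dim genes left it out. The number of members separated from all other arrays was 9 or 10. Calls between ganglion and other amacrine cells rose from 3 to 5 with the columns as deposited, with quantile normalization within each scale and with a pseudocount of 1. Calls between bipolar and other amacrine cells fell from 2 to 1 with a shift to equal medians, quantile normalization within each scale, a pseudocount of 64 and the median over probe sets, rose to 5 with a pseudocount of 1, and were 1 to 2 when single arrays were left out. Calls among the other amacrine subtypes went from 4 to 7 (pseudocount 1), 2 (pseudocount 64) and 1 (C57BL/6 alone), and were 2 to 6 with single arrays left out. Calls among ganglion cells went from 1 to 0 (pseudocount 1; median over probe sets) and 2 (array weights), and were 1 to 2 with single arrays left out. The partner count of 29 was 18 with the median over probe sets and 23 to 31 with single arrays left out. The values that turned were the Islr2 gap (-0.20 as deposited, -0.34 within each scale), Megf10 in bipolar cells (-0.65, C57BL/6 alone) and Abca1 (0.17, median over probe sets). ON against MP bipolar cells could not be compared on C57BL/6 alone.

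With the replicate block, counts were 10 separated members, 4 calls among other amacrine subtypes, 1 among ganglion cells, 3 for ganglion cells, 2 for bipolar cells and 1 for ON against MP bipolar cells, and 30 partner genes; the numbers are not taken to pair the samples. Values near the lowest reading of 1 are limited by signal over background, and differences to them depend on the pseudocount.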
